A study of Mus musculus with 9 samples.

Results

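The 3 Slit genes encode secreted guidance proteins and the 4 Robo genes encode the receptors of that family. All 7, Slit1, Slit2, Slit3, Robo1, Robo2, Robo3 and Robo4, were read by symbol from a table of 24421 rows of gene counts in 9 RNA sequencing libraries. The set was taken up because Slit3 was higher at high abundance after BAL101553, so the levels of the members in treated and control tumors are given as a description, without a test. SB28, a GFP-marked glioma line of the mouse, was grown in the brain of C57BL/6 mice. The study's methods describe sorting of GFP-positive cells without CD45 or CD11b, whereas the labels call this material whole tissue. Those methods cover fewer ex vivo samples per group than the 3 here. Whether these libraries were made in that way is therefore not certain. BAL101553 is a prodrug given by mouth whose active form acts on microtubules and switches on the spindle assembly checkpoint. The groups were 3 libraries from control mice, 3 from BAL101553 mice and 3 labelled astrocytes, whose treatment in the labels is also BAL101553. The study's text does not describe the libraries labelled astrocytes. By the study's methods, treated tumors were harvested later than control tumors, at matched tumor size, so treatment and time of growth cannot be told apart. All tumor libraries come from 1 cell line, and the labels only number the replicates, so p-values measure the spread between these libraries, which may be technical.

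Slit proteins bind Robo receptors on the surface of growing axons and migrating cells and usually repel them. Heparan sulfate proteoglycans steady the binding, and inside the cell the Robo tail recruits GTPase-activating proteins, Abl kinases and Ena/VASP proteins, which act on Rac, Cdc42 and the actin cytoskeleton. In brain tumors the pathway is known from work on invasion and on vessels, where Robo4 is mainly an endothelial receptor.

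Depth was similar in all groups. Total counts ran from 24540452 to 28761388 in control libraries, from 26667789 to 34013875 in BAL101553 libraries, and from 22919523 to 29230743 in those labelled astrocytes. Levels are CPM, the usual read count normalised to the depth of a library, with libraries scaled by the trimmed mean of M values (TMM) over all 9, and a gene with 0 reads in a library could reach between 0.0884 and 0.135 CPM, the value of 3 reads. The 8 astrocyte markers summed to between 11999 and 14749 CPM in the libraries labelled astrocytes and to between 681 and 972 CPM in the SB28 libraries, where Slc1a2, a glutamate transporter of astrocytes, was at or below 1.61 CPM. Oligodendrocyte markers summed to between 10282 and 12723 CPM and microglia and macrophage markers to between 427 and 922 CPM in the libraries labelled astrocytes, against at most 20.6 and 4.53 CPM in the SB28 libraries. Markers of other brain cells were thus present in these libraries beside those of astrocytes. Because these are bulk libraries, fewer cells of a type and less RNA per cell cannot be told apart.

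Slit2 and Slit3 each carry a hairpin of the same microRNA in an intron. Mir218-1 lies at chr5:48223942-48224051 on the plus strand of GRCm38, in intron 16 of Slit2, and Mir218-2 at chr11:35616816-35616925 on the plus strand, in intron 14 of Slit3. The mature sequences (RefSeq, GRCm38.p6) are shown because the transcripts of the members were searched for letters that pair with the 5p seed. The seed, bases 2 to 8, is in capitals. Both hairpins give the same 5p arm, whereas their 3p arms differ in sequence and in seed.
mmu-miR-218-5p: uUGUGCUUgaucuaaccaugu
mmu-miR-218-1-3p: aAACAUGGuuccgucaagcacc
mmu-miR-218-2-3p: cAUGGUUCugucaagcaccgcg

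The letters AAGCACA, which pair with the 5p seed, were sought on the transcript strand of the longest 3′ UTR of each gene in GENCODE. One match was found in Robo1 and 2 in Robo2, the receptors of SB28 cells, as printed below from GRCm38 with the match in capitals. Further matches were found in Slit2 (2) and Robo3 (1), and none in Slit1, Slit3 and Robo4. Such a match was present in 2902 of 21039 genes (13.8%), whose 3′ UTR had a median of 960 bases, against 1733 bases in Robo1, 3987 in Robo2 and 3492 in Slit2. A match describes the sequence and not the binding of the microRNA.
Robo1, chr16:73045334-73045355, plus strand: ttttttggttttaaAAGCACAa
Robo2, chr16:73895358-73895379, minus strand: ttttatttggtgatAAGCACAa
Robo2, chr16:73893032-73893053, minus strand: gtcacggcagacccAAGCACAg

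The hairpins themselves were hardly counted. Mir218-2 had 0 reads in all 9 libraries, and Mir218-1 had 0 reads in 8 libraries and 1 read in a library labelled astrocytes. These libraries were made for long RNA, so the level of the mature microRNA was not measured.

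Among the ligands, Slit3 and Slit2 were higher in BAL101553 than in control tumors, and Slit1 was near 0 in both. Slit3 (chr11:35121224-35708507, plus strand, GRCm38) was at 75.7, 122 and 96.9 CPM in the control libraries and at 323, 346 and 339 CPM in the BAL101553 libraries. The groups did not overlap, every treated library lying above every control. The mean was 98.3 ± 23.4 CPM in control and 336 ± 11.9 CPM in BAL101553 tumors (SD, n = 3), a log2 fold change of 1.78 (SE 0.16) or 3.43-fold. The treated libraries were also the more uniform, with a coefficient of variation of 3.55% against 23.8% in control. By mean CPM, which depends on gene length, Slit3 moved from place 2502 of 16325 genes with reads in control to place 498 of 16816 in BAL101553 tumors. Among 2397 genes with a mean of at least 100 CPM in BAL101553 tumors, 12 had a log2 fold change as high as that of Slit3, itself included. Slit3 was chosen for a rise at high abundance in these libraries, so nothing is read from this place.

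Slit2 (chr5:47983138-48307733, plus strand) encodes the ligand best known as a midline repellent. It was at 139, 110 and 136 CPM in control and at 270, 150 and 230 CPM in BAL101553 libraries. The groups did not overlap, but BAL101553 replicate 2 lay close to the controls, at 0.6004 times the mean of the other treated libraries. The means were 129 ± 15.9 and 217 ± 61.1 CPM (SD, n = 3), a log2 fold change of 0.76 (SE 0.21) or 1.69-fold. It was 0.96 without BAL101553 replicate 2 and 0.57 without BAL101553 replicate 1, while that of Slit3 lay between 1.62 and 1.96 whichever library was left out. Slit1 (chr19:41600257-41743665, minus strand) had between 0 and 4 reads in each of the 6 tumor libraries, too few for a comparison.

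The ratio of Slit3 to Slit2 reads does not depend on the scaling between libraries. It was 0.543, 1.11 and 0.713 in control, and 1.19, 2.30 and 1.47 in BAL101553 libraries. Each treated library had more Slit3 than Slit2 reads, and the lowest treated ratio was just above the highest control. The ratio was added after the data were seen and holds Slit3, which was chosen on these libraries. Nothing is therefore read from this separation.

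The receptors showed no such separation. Robo1 (chr16:72308306-73046095, plus strand), a widely expressed Slit receptor, was at 15.3, 10.2 and 9.43 CPM in control and at 8.11, 23.6 and 11.5 CPM in BAL101553 libraries. Its groups overlapped in full, because replicate 2 of the treated group was the highest and replicate 1 the lowest of all 6. The log2 fold change was 0.31 (SE 0.39), but -0.25 without BAL101553 replicate 2 and 0.60 without BAL101553 replicate 1. Robo2 (chr16:73891839-74411825, minus strand), the receptor best known from retina and kidney, was at 21.6, 12.5 and 9.68 CPM in control and at 19.5, 8.44 and 16.2 CPM in BAL101553 libraries. The groups overlapped again, with a log2 fold change of 0.01 (SE 0.37) that ran from -0.24 without BAL101553 replicate 1 to 0.41 without control replicate 1.

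Robo1 and Robo2 stood in opposite order in 1 treated library. BAL101553 replicate 2 had 2.41 times the mean Robo1 level of the other treated libraries and 0.474 times their Robo2 level. In control replicate 1, by contrast, both receptors were the highest of the group, at 1.56 and 1.95 times the mean of the other control libraries. Robo3 (chr9:37415669-37433246, minus strand), a divergent receptor that in mammals binds Nell2 and not Slits, had 1 read in 6 tumor libraries. Robo4 (chr9:37401897-37415115, plus strand) had between 1 and 9 reads per tumor library, with means of 0.237 ± 0.183 CPM in control and 0.218 ± 0.0355 CPM in BAL101553 tumors (SD, n = 3). Of the 4 members with enough reads for a fit, Slit2 and Slit3 were thus higher in every treated library than in every control. Of the 12633 genes fitted, 20.1% were higher and 19.6% lower without overlap, 39.7% in all, and since the members were chosen on this contrast nothing is read from their count.

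**Figure D1:**
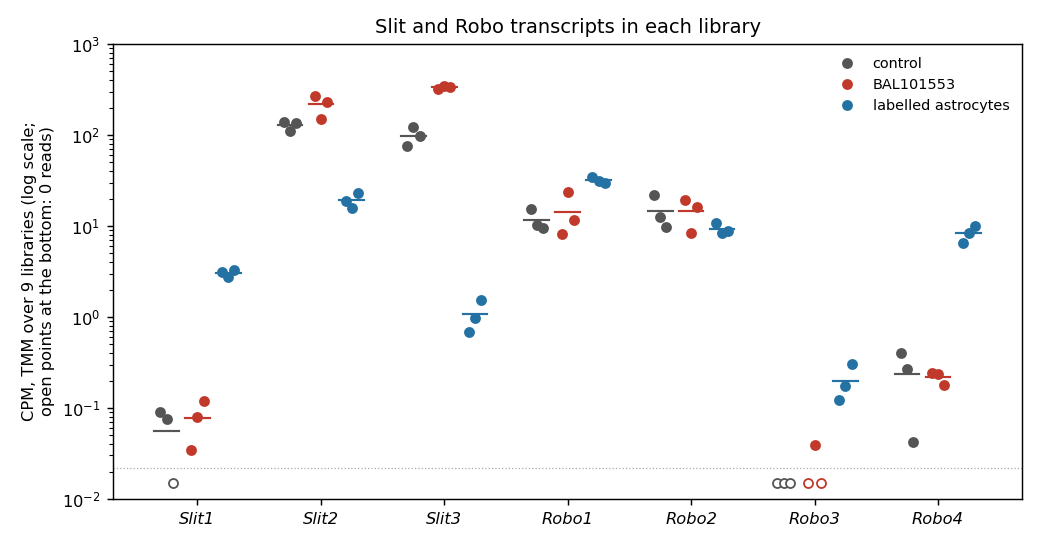
CPM of the 7 genes (log scale) in control (grey), BAL101553 (red) and the libraries labelled astrocytes (blue), with 1 point per library, the group mean as a bar where it lies above the range set aside for 0 reads, and open points at the bottom for 0 reads. Slit3 lies between 323 and 346 CPM in BAL101553 libraries and at or below 122 CPM in control, while the Robo1 and Robo2 points of these 2 groups overlap.

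Sums of some marker lists of other cell types differed in the same comparison. The list of 8 genes for pericytes and fibroblasts summed to between 6181 and 6961 CPM in control and to between 8540 and 10248 CPM in BAL101553 libraries, most of it Col1a1 and Col1a2. Of the 5 of its genes tested, 3 rose (Pdgfrb, Dcn and Col1a1) and 1 fell (Rgs5), beside 8.64% of all genes higher and 6.09% lower. Kcnj8 and Abcc9, which mark brain pericytes, were at or below 0.118 CPM in all 6 tumor libraries, and between 28.1 and 103 CPM in the libraries labelled astrocytes. The endothelial list summed to between 739 and 866 CPM in control and to between 516 and 645 CPM in BAL101553 libraries, with 0 of its 6 genes higher and 1 lower past the threshold. Most of that sum was Cdh5, at 703 to 823 CPM in control and 490 to 571 CPM in BAL101553 libraries. The astrocyte list summed to between 940 and 972 CPM and to between 681 and 797 CPM, with 1 of 5 higher and 1 lower. Most of it was Gja1, at 888 to 928 CPM in control and 650 to 746 CPM in BAL101553 libraries. Sums of the oligodendrocyte, neuron, and microglia and macrophage lists overlapped between these groups. The part of such cells in the Slit levels was not tested.

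In the libraries labelled astrocytes Slit2 and Slit3 were lower, and Slit1 higher, than in the tumor libraries. Slit3 was at 0.678, 0.966 and 1.55 CPM there, below every tumor library. Its log2 fold change was -6.55 against control (SE 0.28) and -8.31 against BAL101553 (SE 0.24), given without a p because Slit3 was chosen on its levels in these tumor libraries. Slit2 was at 18.8, 15.6 and 22.9 CPM, again below every tumor library. It was lower by a log2 fold change of -2.75 against control (SE 0.15, adjusted p = 3.98e-07) and of -3.49 against BAL101553 (SE 0.25, adjusted p = 3.88e-06). Slit1, a ligand of the nervous system, was at 3.11, 2.76 and 3.25 CPM, above every tumor library. Its 267 reads there stood against 4 in control, a ratio of 55.0 with a 95% counting interval from 21.2 to 203, and against 7 in BAL101553 libraries, a ratio of 38.4 with an interval from 18.4 to 96.5. No p is given, because Slit1 had enough reads for a fit only through the libraries in which it was high.

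Robo1 and Robo4 were higher, and Robo2 did not pass the test, in the libraries labelled astrocytes. Robo1 was at 34.6, 31.3 and 29.4 CPM there, above all 6 tumor libraries. Its log2 fold change was 1.46 against control (SE 0.18, adjusted p = 7.67e-05) and 1.17 against BAL101553 (SE 0.34, adjusted p = 0.0121). Robo2 was at 10.9, 8.35 and 8.76 CPM, overlapping both tumor groups. Its log2 fold change was -0.64 against control (SE 0.28, adjusted p = 0.0608) and -0.65 against BAL101553 (SE 0.30, adjusted p = 0.0726). Without BAL101553 replicate 2 the adjusted p against BAL101553 was 0.000917, and without control replicate 3 that against control was 0.0131, so leaving out 1 library changed each call.

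Robo4 was at 6.54, 8.35 and 10.002 CPM in the libraries labelled astrocytes, above every tumor library. Its 719 reads there stood against 17 in control, a ratio of 34.8 with a 95% counting interval from 21.6 to 60.1, and against 19 in BAL101553 libraries, a ratio of 38.1 with an interval from 24.2 to 63.7. As with Slit1, no p is given, since it was fitted only through the libraries in which it was high. Robo3 was at 0.123, 0.172 and 0.302 CPM and could not be fitted. Its 17 reads there stood against 1 read in BAL101553 libraries, a ratio of 17.1 with a 95% counting interval from 2.68 to 715, and against 0 reads in control, which makes it at least 1.60-fold higher when control is set to 3 reads per library. The tests of Slit2 and Robo1 stand beside a background in which most genes differed. Against control, 88.3% of all 15207 genes passed the threshold, 48.8% higher and 39.5% lower, and 89.9% did not overlap, 49.6% higher and 40.3% lower. Against BAL101553, 85.1% of all 15314 genes passed, 46.3% higher and 38.9% lower, and 87.8% did not overlap, 47.6% higher and 40.2% lower. Nothing is read from a count of members here, and both comparisons rest on the same libraries labelled astrocytes.

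Endothelial markers were measured beside Robo4. Cldn5 was at 59.6 to 63.7 CPM, Pecam1 at 18.6 to 27.4 CPM and Tie1 at 14.03 to 18.3 CPM in the libraries labelled astrocytes, against at most 1.48, 1.21 and 0.720 CPM in the SB28 libraries. Tek was at 16.3 to 19.1 CPM against at most 9.87 CPM in SB28. Flt1 overlapped, at 43.8 to 55.5 CPM against 24.0 to 70.6 CPM in SB28. The sum over all 6 genes of the list ran the other way, from 173 to 204 CPM against 516 to 866 CPM in the SB28 libraries, because Cdh5 alone was at 490 to 823 CPM in SB28. The part of endothelial cells in the Robo4 level was not tested.

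**Figure D2:**
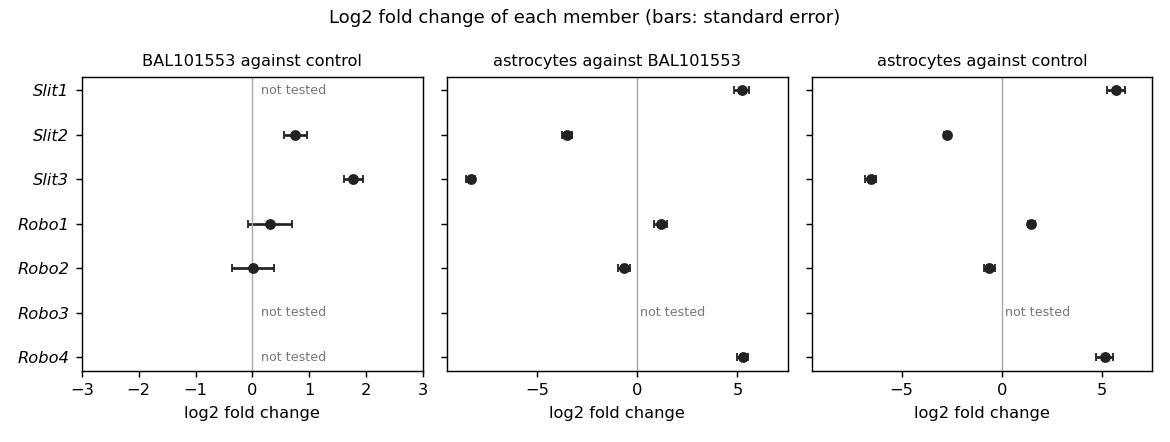
Log2 fold change of each member (points) with its standard error (bars) in BAL101553 against control, astrocytes against BAL101553 and astrocytes against control. Slit2 and Slit3 lie at 0.76 and 1.78 on the left, and at -3.49 and -8.31 in the middle, where Slit1 and Robo4, fitted only through the libraries in which they were high, lie at 5.21 and 5.25; members with too few reads are marked as not tested, and the horizontal axis of the left panel is narrower.

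Levels of different genes can be compared only per length. Divided by the merged exons of each gene, from 5.30 kb in Robo4 to 25.43 kb in Slit2, Slit3 was the most abundant member in both tumor groups, at 16.2 ± 3.85 CPM per kb in control and 55.4 ± 1.97 CPM per kb in BAL101553 tumors (SD, n = 3). Slit2 came next at 5.06 ± 0.624 and 8.52 ± 2.40 CPM per kb. Robo1 and Robo2 were at 0.705 and 0.861 CPM per kb in control and at 0.873 and 0.866 CPM per kb in BAL101553 tumors, and these neighbours in the order do not differ beyond their spread. In the libraries labelled astrocytes the order was Robo1 at 1.92 ± 0.157, Robo4 at 1.56 ± 0.327, Slit2 at 0.751 ± 0.144, Robo2 at 0.550 ± 0.0812, Slit1 at 0.513 ± 0.0425, Slit3 at 0.175 and Robo3 at 0.0291 CPM per kb (SD, n = 3). Here Robo1 and Robo4, and likewise Robo2 and Slit1, differ by less than their spread.

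The balance of ligand to receptor transcripts followed these levels. Summed per kb, Slits stood to Robos at 7.90, 17.4 and 18.5 in control libraries, at 37.9, 31.8 and 38.6 in BAL101553 libraries, and at 0.345, 0.310 and 0.403 in the libraries labelled astrocytes. The 3 groups did not overlap. Most of the Slit sum in the tumor libraries was Slit3, for whose rise in them the set was chosen. Nothing is therefore read from the separation of control and BAL101553 libraries. Slit3 made up 75.5% of the summed Slit level in control, 86.7% in BAL101553 tumors and 11.98% in the libraries labelled astrocytes. Robo4 made up 38.3% of the summed Robo level in the libraries labelled astrocytes and 2.53% and 2.31% in control and BAL101553 tumors. In BAL101553 replicate 2, Robo1 took 72.3% of the summed Robo level, against 29.2% and 41.4% in the other treated libraries.

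The length used matters for these values. The merged exons of Slit2 are much longer than its longest protein-coding transcript of 9.96 kb. With the length of the longest protein-coding transcript for every gene, Slit3 was at 18.8 ± 4.47 and Slit2 at 12.9 ± 1.59 CPM per kb in control (SD, n = 3). In BAL101553 tumors the values by transcript length were 64.3 ± 2.28 for Slit3 and 21.8 ± 6.13 for Slit2. The mean ratio of Slit3 to Slit2 was then 1.502 in control, 3.16 in BAL101553 tumors and 0.105 in the libraries labelled astrocytes, against 3.30, 6.95 and 0.231 by merged exons. Summed Slits then stood to summed Robos at a mean of 10.6 in control, 23.8 in BAL101553 tumors and 0.379 in the libraries labelled astrocytes. By merged exons these means were 14.6, 36.1 and 0.353. In the libraries labelled astrocytes the order changed by transcript length, with Robo1 at 4.201 ± 0.342, Slit2 at 1.92 ± 0.368, Robo4 at 1.68 ± 0.350, Robo2 at 1.09 ± 0.160 and Slit1 at 0.536 ± 0.0444 CPM per kb (SD, n = 3), so that Slit2 and Robo4 became the neighbours that differ by less than their spread. Robo4 then made up 23.97% of the summed Robo level there and 1.33% and 1.204% in control and BAL101553 tumors, and Slit3 made up 7.55% of the summed Slit level there, 58.7% in control and 74.9% in BAL101553 tumors.

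**Figure D3:**
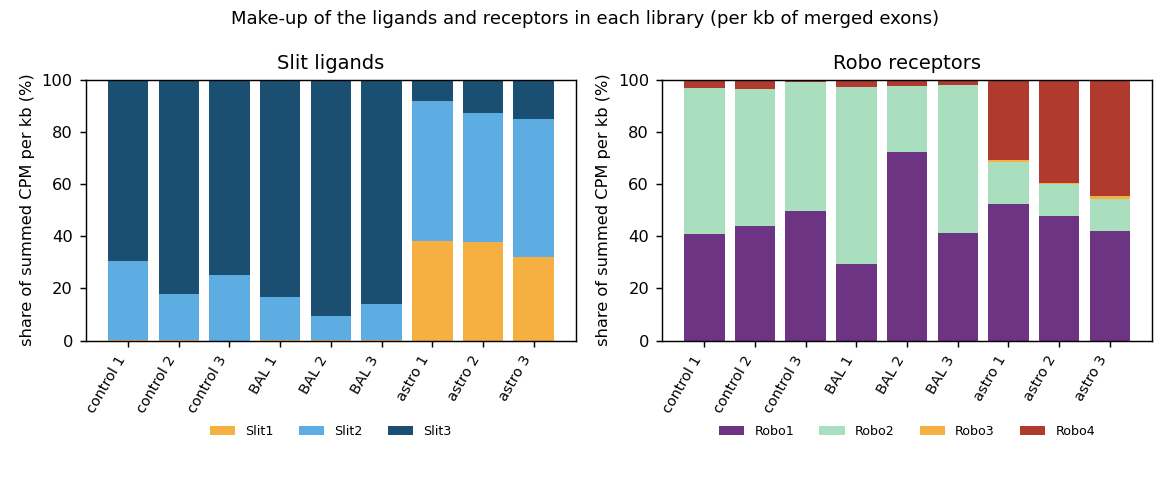
Share (%) of each Slit (left) and each Robo (right) in the summed CPM per kb of merged exons of its family, with 1 stacked bar per library. Slit3 fills 69.4% to 82.3% of the Slit bar in control, 83.3% to 90.6% in BAL101553 and 8.12% to 15.0% in the libraries labelled astrocytes, and Robo1 takes 72.3% of the Robo bar in BAL101553 replicate 2.

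Position set the members apart from one another. Robo1 and Robo2 lie 845.7 kb apart on chromosome 16 on opposite strands, and Robo3 and Robo4 lie 0.6 kb apart on chromosome 9 with their 3′ ends facing each other. No exon of another GENCODE gene overlaps an exon of a member. The tested neighbours of Slit3 did not move with it in BAL101553 against control. Spdl1, 287.6 kb away, had a log2 fold change of -0.02 (SE 0.11, adjusted p = 0.918) and Pank3, 61.0 kb away, one of 0.02 (SE 0.14, adjusted p = 0.937). In astrocytes against BAL101553 both were lower without overlap, beside 40.2% of all genes. Their log2 fold changes there were -4.99 (SE 0.32) for Spdl1 and -0.96 (SE 0.14) for Pank3. Downstream of Slit2, 5730480H06Rik, 20.2 kb away, was at 0.135, 0.152 and 0.295 CPM in control and at 0.445, 1.03 and 1.03 CPM in BAL101553 libraries. Its log2 fold change was 2.09 (SE 0.51), from 3 to 35 reads per library. No p is given, because it had enough reads for a fit only through the BAL101553 libraries, in which it was high. On the other side, Lcorl, 2125.5 kb away, had a log2 fold change of 0.45 (SE 0.23, adjusted p = 0.204).

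The nearest other genes tested beside Robo1 and Robo2 in BAL101553 against control lay far away. Gbe1, 1738.6 kb from Robo1, had a log2 fold change of 0.15 (SE 0.12, adjusted p = 0.427). Hspa13, 1333.6 kb from Robo2, had one of -0.16 (SE 0.15, adjusted p = 0.499). Hepacam, which encodes an adhesion protein of astrocytes, lies 15.3 kb from Robo4 and was higher in the libraries labelled astrocytes, at 643 to 674 CPM, against at most 0.269 CPM in SB28. Msantd2, on the far side, had a log2 fold change of 0.14 against BAL101553 (SE 0.11, adjusted p = 0.276) and of 0.69 against control (SE 0.11, adjusted p = 0.000283).

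The promoter of Slit2 is printed because Slit2 was 1 of the 2 members higher in the treated libraries; for Slit3, the other, 232 of the 250 bases of the RefSeq window lie inside the first exon of GENCODE. It shows the 233 bases at chr5:47982905-47983137 on the plus strand (RefSeq, GRCm38.p6), which end at the GENCODE start of the gene. Capitals mark TATAAA and GGGCGG, which were chosen after the sequences were seen and searched on both strands; the marked matches do not overlap.
Slit2 upstream: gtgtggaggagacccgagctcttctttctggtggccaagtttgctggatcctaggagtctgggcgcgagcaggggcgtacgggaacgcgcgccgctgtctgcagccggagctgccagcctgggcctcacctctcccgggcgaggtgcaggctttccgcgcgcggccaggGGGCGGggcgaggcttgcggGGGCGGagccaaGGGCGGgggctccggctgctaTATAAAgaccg
Within 250 bases before the RefSeq start, TATAAA was found in 12.4% and GGGCGG in 32.7% of 32841 promoters. The Slit3 window held 6 GGGCGG and no TATAAA, and 35 CpG against 25 in Slit2 and a median of 6 in all promoters. A match describes letters only.

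Other genes of the pathway were read from a list of 51, of which 47 could be tested in BAL101553 against control. Of these, 2 rose and 7 fell, 19.1% beside 14.7% of all genes (8.64% higher and 6.09% lower), and the median log2 fold change was -0.06 against 0.02 over all genes. With library totals in place of TMM, which moved the median of all genes from 0.02 to 0.10, the split was 4 higher and 5 lower in the list, and 1456 higher and 425 lower over all genes against 1091 and 769. Among 11 ligands and surface partners, Ntn1, which encodes the guidance cue netrin-1, rose from 64.3, 84.9 and 80.2 CPM in control to 100, 132 and 119 CPM (log2 fold change 0.62, SE 0.14, adjusted p = 0.0281). Flrt3, an adhesion protein that binds Robo1, fell from 59.2, 34.4 and 50.9 CPM to 20.9, 11.7 and 11.9 CPM (log2 fold change -1.69, SE 0.28, adjusted p = 0.0133). The groups did not overlap for either gene, and Flrt3 showed the largest change of the list among those past the threshold.

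Of 9 genes for heparan sulfate proteoglycans and their synthesis, 1 fell, Ext2, which encodes a subunit of the enzyme that extends heparan sulfate chains. It was at 212, 191 and 213 CPM in control and at 140, 172 and 159 CPM in BAL101553 libraries (log2 fold change -0.38, SE 0.11, adjusted p = 0.0478), and its call was lost in 9 of 14 alternatives. Among 21 cytoplasmic effectors, 4 fell and 0 rose, and 17 did not pass the test. Vasp, an actin regulator of the Ena/VASP family, fell from 311, 291 and 295 CPM to 209, 197 and 214 CPM (log2 fold change -0.53, SE 0.08, adjusted p = 0.0119). The GTPase gene Cdc42 and its kinase Pak1 fell by 0.47 (SE 0.10, adjusted p = 0.0241) and 0.52 (SE 0.13, adjusted p = 0.0354) on the log2 scale, and Cap1, an actin-binding protein that also binds Abl, fell by 0.55 (SE 0.11, adjusted p = 0.0214).

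Among 6 genes for processing and trafficking of the receptor, Usp33, a deubiquitinase that acts on Robo1, rose by a log2 fold change of 0.40 (SE 0.10, adjusted p = 0.0315). Ndfip1, an adaptor for ubiquitin ligases, fell by 0.56 on the log2 scale (SE 0.12, adjusted p = 0.0230). Flrt3 and Vasp passed the threshold in 13 of 14 alternatives, Ntn1, Cap1, Cdc42 and Ndfip1 in 11, Usp33 in 8 and Pak1 in 7. Without control replicate 3 the list held 0 genes past the threshold in edgeR, with 14 at an unadjusted p under 0.05 and 8 past an adjusted threshold in DESeq2, against 9 and 19 in edgeR with all libraries.

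**Figure D4:**
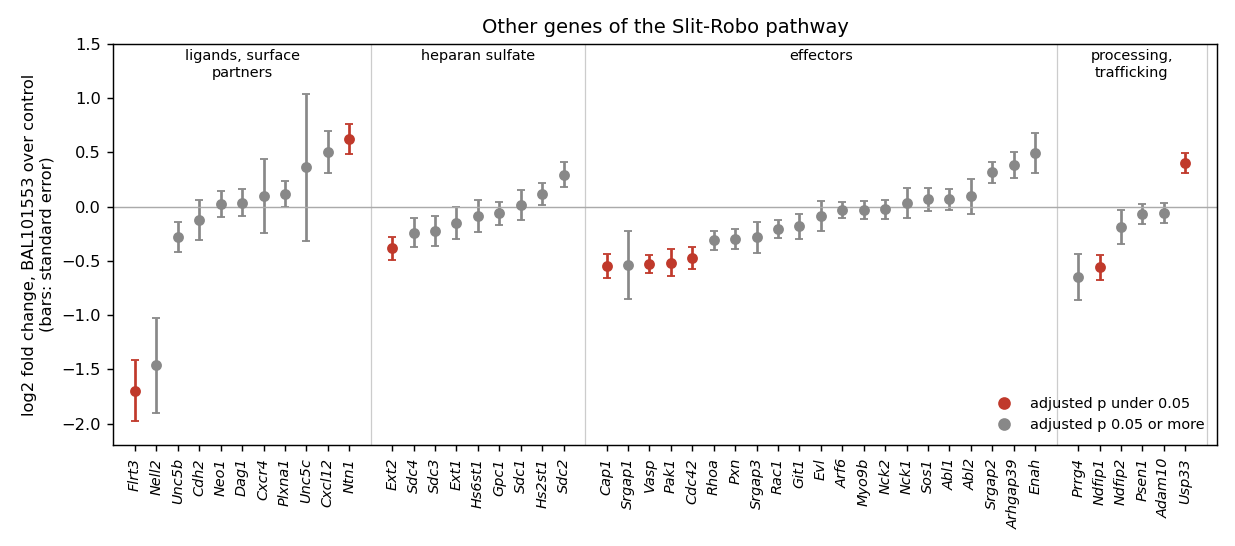
Log2 fold change in BAL101553 over control (points) with its standard error (bars) for the 47 pathway genes tested, grouped by role and sorted within each role, with genes past an adjusted p of 0.05 in red. Ntn1 (0.62) and Usp33 (0.40) lie above 0, and Flrt3 (-1.69), Ndfip1, Cap1, Vasp, Pak1, Cdc42 and Ext2 below.

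Against BAL101553 tumors, the libraries labelled astrocytes differed in most of the list. Of 48 genes tested, 15 were higher and 25 lower (83.3% beside 85.1% of all genes), with a median log2 fold change of -0.38 against 0.18 over all genes. The 4 largest rises were in Dcc, the netrin receptor, Nell2, a ligand of Robo3, Unc5c, a second netrin receptor, and Srgap1, a GTPase-activating protein that binds Robo1. Dcc was at 11.9, 9.55 and 8.49 CPM and had 2 reads in all BAL101553 libraries together, a ratio of 448 with a 95% counting interval from 124 to 3702. Nell2 had a log2 fold change of 6.07 (SE 0.30) and Unc5c one of 5.45 (SE 0.42). No p is given for them, because in this comparison they had enough reads for a fit only through the libraries labelled astrocytes. Srgap1 rose by 2.60 (SE 0.28, adjusted p = 4.74e-05).

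The 4 largest falls included 3 heparan sulfate genes. Sdc1, the proteoglycan syndecan-1, had a log2 fold change of -6.95 (SE 0.19, adjusted p = 3.46e-08), and Gpc1, glypican-1, one of -4.33 (SE 0.12, adjusted p = 2.95e-08). Ext1, the partner of Ext2, had a log2 fold change of -3.30 (SE 0.18, adjusted p = 7.62e-07) and Plxna1, a plexin receptor, one of -3.04 (SE 0.12, adjusted p = 1.56e-07). All 9 heparan sulfate genes passed the test in this comparison, 8 of them lower, beside 38.9% of all genes lower. Against control, 7 of the 9 passed, all lower, beside 39.5% of all genes lower.

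Genes whose levels most resembled those of a member are given by Pearson's r of log2 CPM as a description, over libraries that share their group. Over all 9 libraries Slit3 was most like Cdyl, Cdc25b, Nfil3, Col8a1 and Ppig (r from 0.996 to 0.997), and 2232 of 13673 genes had an r over 0.95, so that this likeness is common. Over the 6 tumor libraries the genes most like it included Zbed6, Eif4ebp3, Mmab and Nfat5 (r from 0.997 to 0.999), with 400 genes over 0.95. Over all 9 libraries again, Slit1 was most like Mmrn2 and Eml2, Slit2 like Slitrk6 and Stx1a, and Robo4 like Ildr2 and Slco2b1. For Slit1, Slit2 and Robo4, 3106, 1675 and 2435 genes had an r over 0.95, so this likeness is common too. Slit1 had at most 4 reads and Robo4 at most 9 in any tumor library. For Robo1 only 34 genes passed 0.95, Mtmr1 (r = 0.983) and Sh3gl3 (r = 0.980) first, and for Robo2 none did, with Arid3b (r = 0.916) and Shf (r = 0.894) first. Sh3gl3 shared the order of Robo1 in the treated libraries, at 3.04, 16.2 and 4.54 CPM, with replicate 2 highest.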

How the data were processed

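By the study's methods, RNA was extracted from sorted SB28 cells, and stranded libraries with 50-base reads were made. How the cells labelled astrocytes were obtained is not given in the sources used here. Per the labels and the study's methods, reads were mapped with TopHat to mm10, summarized with PicardTools and counted with HTSeq (0.6.1) and featureCounts. The annotation, the strand setting and the treatment of reads shared between genes are not given in the sources used here. The table the authors deposited gives raw whole-number counts, and every column belonged to 1 of the 9 libraries. The methods state fewer ex vivo samples per group than the table holds, and they name another data deposit.

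Analysis used edgeR 4.0.16 and, as an alternative, DESeq2 1.42.0 in R 4.3.3. For each pair of groups, genes that passed filterByExpr were fitted after TMM scaling and compared by the two-sided quasi-likelihood test. P-values were adjusted by Benjamini-Hochberg across the genes of that fit, and 0.05 was the threshold. Log2 CPM used a prior count of 2. Standard errors were derived from the F statistic of that test and the log2 fold change. Counting intervals are exact and cover counting error only. The methods were tested on simulated data.

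The members and gene lists were chosen with earlier results of these data known. Named were the members, pathway genes past the threshold in BAL101553 against control, the 4 largest rises and falls against BAL101553, nearest tested neighbours, the most alike genes (1 of which is not reported here) and marker genes. Alternatives were DESeq2, other scalings and filters on low counts, all 9 libraries in 1 model, each library left out and the replicate number as a block; transcript length in place of merged exons and the ratio of Slit3 to Slit2 reads were added after the data were seen. Positions came from GENCODE vM21, in which 23350 of 24419 names matched by symbol.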

Additional observations from a re-analysis of the deposited data

How the results depend on the processing

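In BAL101553 against control, 1860 genes passed the threshold with edgeR, 2832 with DESeq2, 3022 with all 9 libraries in 1 model and between 193 (without control replicate 3) and 1712 when 1 library was left out, with 458 without control replicate 1, 668 without BAL101553 replicate 3 and 1133 without BAL101553 replicate 1. In the pathway list 9 genes passed, 15 with DESeq2, 15 with all 9 libraries, and between 0 and 11 with 1 library left out, with 3 without control replicate 1 and 2 without BAL101553 replicate 3. Same-numbered control and BAL101553 libraries deviated together with correlations of 0.109, 0.005 and 0.129, and those with different numbers with correlations from -0.156 to 0.052. Not every library correlated best with its own number, and these values do not settle whether the libraries form pairs. With the replicate block, 1371 genes and 8 pathway genes passed in this comparison, 12815 and 39 in astrocytes against BAL101553, and 13357 and 42 in astrocytes against control. The adjusted p of Robo2 against control was 0.0243 with the block and 0.0466 with at least 1 count in any library. No call past a threshold turned its direction, while the log2 fold changes of Robo1 and Robo2 in BAL101553 against control turned sign when 1 library was left out (to -0.25 and -0.24). The counts against the libraries labelled astrocytes ranged from 9779 to 14200 and from 9975 to 14622. With at least 10 counts in every library, Slit1 and Robo4 could not be tested. Depth limits Slit1, Robo3 and Robo4 in tumor libraries.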
